A study of Saccharomyces cerevisiae with 9 samples.

Results

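Drying was compared with growth in BY4743, a diploid laboratory strain of Saccharomyces cerevisiae of S288C descent that lacks working URA3, LEU2 and HIS3 genes on either chromosome set. The comparison took 6 of the 9 arrays of the series, chosen by the treatment named in their titles, and covered 9275 tested probe sets that together named 5656 genes. Control cells had grown in rich glucose medium (YPD) at 30 °C to an A600 of 0.8 and were then spun down and resuspended in diluted YPD, where the 3 control samples were taken. The 3 dried samples came from such suspensions after 42 h of drying in open dishes and a further 72 h at 20% relative humidity, with no rehydration before RNA extraction. All 6 samples carry the same strain and auxotrophic markers. The other 3 arrays held commercial dry active yeast, and the labels do not describe how that yeast was bred, grown or dried.

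Yeast that grows on glucose ferments it, keeps the genes for other carbon sources repressed, and spends most of its transcription on ribosomes and on the enzymes that feed them. When glucose runs out, the Snf1 kinase and its transcription factors open genes for respiration, gluconeogenesis and fat breakdown, while protein kinase A and TOR, the growth-promoting kinases, are turned down. Cells that then lose their water can survive for long periods in a dormant state, for which yeast is widely used as a model and as a commercial product.

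Total RNA was measured as 1 signal intensity per probe set and array, and signals printed here are quantile-normalized values on the linear scale. A probe set was called higher or lower when limma's test of dried minus control gave a Benjamini-Hochberg adjusted p below 0.05 over all 9275 probe sets, and every adjusted p below comes from that fit. A gene was represented by its brightest probe set, and levels of different genes were not compared because probes differ in brightness. Where a gene lay at or below the background of every array of a group, the change is a bound, written "at least", and SE is the standard error of a log2 change. Whether the 3 arrays of a group go back to separate cultures is not stated in the labels, and the p-values then reflect array-to-array spread that could be technical. No control was kept undried over the same hours, so drying and elapsed time cannot be told apart, nor can fewer cells of a kind and less RNA per cell.

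Background, set from 28 control probe sets for absent targets, was 32.2 to 59.5 per array. Between 72.1% and 81.3% of the tested probe sets of the 6 arrays lay above it. URA3, of uracil synthesis, lay at background in both groups, as its deletion requires, with signals of 2.43, 2.74 and 3.22 in the control and the floor of 1 in all 3 dried samples. LEU2, of leucine synthesis, read 84.8, 73.0 and 95.8 in the control, above background and against the genotype, and 13.2, 35.7 and 40.1 in dried cells, at background. Another pair of LEU2 probe sets, which may share probes, lay at background in both groups, and where each set's probes lie relative to the deleted part is not known here. RNA quality was read from control genes, and the groups differed most for actin. The log2 difference between the 3′ and 5′ probe sets of actin (ACT1) was -0.71, -0.19 and -0.29 in control cells against 1.20, 1.52 and 1.48 in dried cells, a shift of 1.80 in which the groups did not overlap (exact permutation test, two-sided, p = 0.1, the smallest that 3 arrays against 3 allow). The same difference moved by 0.32 for SPT15 (p = 0.1) and by 0.27 for SRB4 (p = 0.2) in the exact test. For SRB4 the groups overlapped. The part of RNA quality in the changes reported here was not tested.

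Dried cells differed from growing cells in most of the transcripts measured. Of the 5656 genes, 2312 (40.9%) were higher and 2150 (38.0%) lower, and 1194 were not called. By probe set, 3358 (36.2%) were higher and 3063 (33.0%) lower. Among genes, 1312 were higher and 1278 lower by at least 1 log2 unit, and 170 were higher and 222 lower by at least 3. The groups did not overlap for 4740 genes (83.8%). These shares are the background against which each gene group below has to be read. Of the calls, 52.3% were higher. Scaling the arrays to their spike-in controls moved the median change of all probe sets from 0.04 to -0.29 on the log2 scale and left 1767 higher and 2989 lower probe sets, 37.2% of the calls higher. Directions are therefore relative to the middle of the transcript pool. Among the 2443 probe sets that name no gene, 681 (27.9%) were higher and 544 (22.3%) lower.

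**Figure D1:**
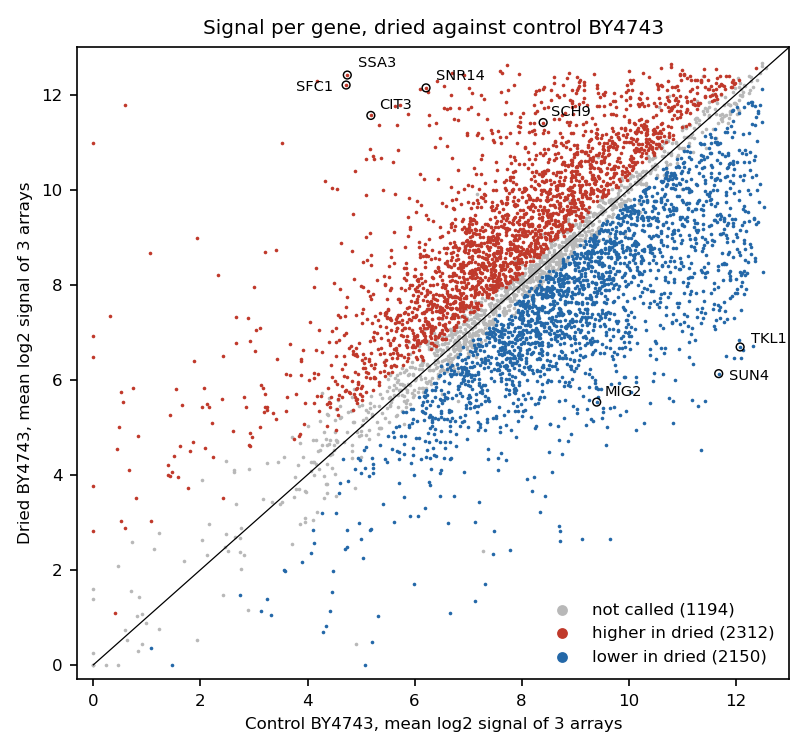
Mean log2 signal of 3 control arrays (horizontal axis) against that of 3 dried arrays (vertical axis) for each of 5656 genes by its brightest probe set, coloured by the limma call, with the line of equal signal. Of these genes 2312 lie in the higher set and 2150 in the lower set, and the circled genes are described in the text.

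Among the largest rises were transcripts near or below background in growing cells. SFC1, which carries succinate into mitochondria in exchange for fumarate, read 20.6, 29.8 and 29.8 in control cells against 4702, 5012 and 4447 in dried cells. SSA3, a stress-induced cytosolic HSP70 chaperone, read 32.2, 15.0 and 39.7 in control cells against 5612, 5203 and 5530 in dried cells. Both were at background on every control array, and the rises were at least 115-fold (adjusted p = 2.5e-08) and at least 133-fold (adjusted p = 5.0e-07) in the same order. CIT3, a mitochondrial citrate and methylcitrate synthase, read 39.8, 30.4 and 39.7 in control cells against 2990, 2958 and 3135 in dried cells, at least 73.8-fold higher. SDH9 and SHH3, paralogs of succinate dehydrogenase subunits, rose by 6.01 (SE 0.17) and 6.12 (SE 0.14) on the log2 scale, and MLS1, malate synthase of the glyoxylate cycle, rose by 6.0 (SE 0.21).

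Among the largest falls were those of TKL1, HIS1 and ERG4. TKL1, transketolase of the pentose phosphate pathway, read 5069, 3681 and 4345 in control cells against 95.6, 102 and 112 in dried cells. HIS1, the first enzyme of histidine synthesis, read 3985, 3917 and 4109 in control cells against 104, 70.4 and 94.4 in dried cells. ERG4, the last enzyme of ergosterol synthesis, read 3708, 3501 and 3532 in control cells against 90.4, 88.8 and 93.4 in dried cells. The log2 changes were -5.39 (SE 0.14), -5.50 (SE 0.18) and -5.30 (SE 0.09). HXT4, a glucose transporter, ended at background in all 3 dried samples and was at least 35.6-fold lower. DDR2, a stress-response gene, had a fitted change of -6.83 (SE 1.67, adjusted p = 0.0069), near the lowest of all genes (-6.99). Its signals scattered widely, with 2916, 2323 and 2557 in control cells against 174, 68.0 and 1 in dried cells. DDR2 was one of 11 genes with an SE above 1, against a median SE of 0.13 for all genes. Others were among the most abundant yeast messengers. TDH3, a glycolytic dehydrogenase, read 129, 206 and 1 in control cells against 1, 2.45 and 1 in dried cells. ENO2, enolase, read 1, 1521 and 1 in control cells against 2226, 1651 and 2256 in dried cells. The probe sets of both genes may share probes. The 2 control arrays of ENO2 and the 3 arrays of TDH3 that lay at the floor of 1 weighed on those changes. TDH3 was not called, and ENO2 is counted below as higher with its partner ENO1.

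Regulators of carbon use moved in both directions. Of 32 regulators of glucose repression and derepression, 20 were higher and 8 lower, with a median change of 1.01 against 0.06 for all genes. Spike-in scaling left 15 higher and 7 lower. SIP4, a zinc-cluster activator of gluconeogenic genes, read 58.3, 27.7 and 47.4 in control cells against 1069, 969 and 1008 in dried cells. CAT8, the activator that in turn controls SIP4, read 229, 270 and 254 in control cells against 2900, 3061 and 2837 in dried cells. The rises were 4.58 (SE 0.24) and 3.55 (SE 0.09). REG2, a targeting subunit of the Glc7 phosphatase, rose by 2.93. MIG2, a repressor that acts when glucose is plentiful, read 737, 668 and 627 in control cells against 46.9, 51.0 and 41.1 in dried cells, a fall of 3.87 (SE 0.12). The kinase gene SNF1 itself rose by 0.76, and its activating subunit SNF4 fell by 1.67. MIG1, the main glucose repressor, was not called, with a change of 0.02.

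Stress and quiescence regulators were mostly higher, with 16 of 22 higher, 5 lower and a median of 0.86. With spike-in scaling 7 were higher and 4 lower. XBP1, a repressor made under starvation, read 340, 322 and 360 in control cells against 3332, 3125 and 3585 in dried cells, a rise of 3.29 (SE 0.08). IGO2, which protects messengers as cells enter quiescence downstream of the kinase Rim15, rose by 2.88 (SE 0.09), and RPH1, a histone demethylase and repressor, rose by 2.49 (SE 0.09). The paralogous general stress factors parted. MSN2 read 584, 629 and 644 in control cells against 1326, 1476 and 1589 in dried cells. MSN4, the stress-inducible member, read 1047, 980 and 951 in control cells against 129, 135 and 208 in dried cells. MSN2 therefore rose by 1.24 (SE 0.10, adjusted p = 8.9e-06) and MSN4 fell by 2.69 (SE 0.19, adjusted p = 5.5e-06), although the MSN2 rise lost its call with spike-in scaling.

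Genes of protein kinase A and TOR signalling were higher as a group, 21 of 27 measured, with 3 lower and a median of 0.93. With spike-in scaling 8 were higher and 2 lower. SCH9, the kinase that TOR complex 1 activates, read 357, 321 and 337 in control cells against 2833, 2792 and 2557 in dried cells, a rise of 3.01 (SE 0.09). The nitrogen-responsive activators GAT1 and GLN3, which TOR holds in check, rose by 1.72 and 1.57, and IRA1, a brake on Ras, rose by 1.65. Of 19 transcription factors that serve growth genes, 13 were higher and 4 lower (median 1.22), and 10 higher and 4 lower with spike-in scaling. CRF1, a corepressor of ribosomal protein genes, read 22.0, 31.2 and 35.3 in the control, at background, and 743, 668 and 758 in dried cells, at least 17.6-fold higher. RRN3, which recruits RNA polymerase I to ribosomal DNA, rose by 3.55 (SE 0.17), MET4, the activator of sulfur amino acid genes, by 2.58 (SE 0.12) and STB3, which binds promoters of ribosome biogenesis genes, by 2.17 (SE 0.09). The members of this list thus include both repressors and activators of growth genes.

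**Figure D2:**
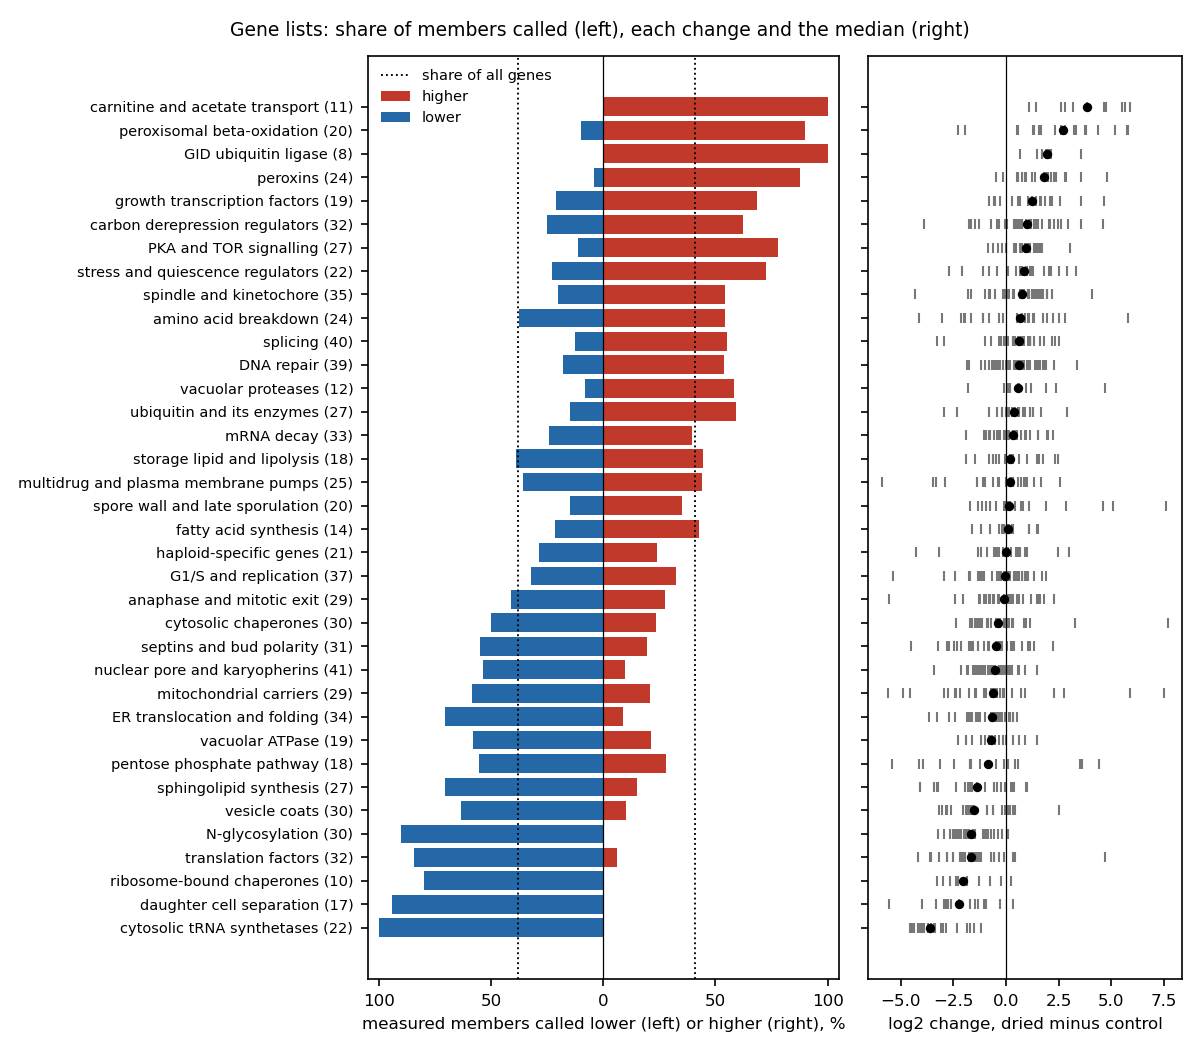
Left, the share of measured members of each of 36 gene lists called higher (red, to the right) or lower (blue, to the left), with the number measured in brackets and dotted lines at the shares of all genes (40.9% and 38.0%). Right, the log2 change of each member as a tick and the list's median as a dot, from 3.83 for carnitine and acetate transport to -3.62 for the cytosolic tRNA synthetases.

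Some activities in yeast are encoded by a pair of related genes, often used under different conditions. Of 55 pairs examined, in which a few genes stand more than once, 52 had both members measured, and in 21 of these one member was called higher and the other lower. Both members rose in 9 pairs and both fell in 10, and one or both were not called in the rest. Among the 9, some control readings scattered widely. ENO1, on a probe set that may share probes, read 129, 1407 and 530 in control cells (SE of its change 1.03). ADH1, an alcohol dehydrogenase, read 175, 2344 and 680 in control cells (SE of its change 0.78). Of all genes 40.9% were higher and 38.0% lower, and whether 21 exceeds the number that such shares give was not tested. In the cytosolic HSP70 pair the stress form SSA3 rose as given above, while SSA2, the form of growing cells, read 2562, 4829 and 3430 in control cells against 664, 700 and 655 in dried cells (-2.37, SE 0.21).

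Among enzymes at the entry to acetyl-CoA, ACS1, the glucose-repressed acetyl-CoA synthetase, read 400, 483 and 457 in control cells against 3735, 4548 and 3992 in dried cells. ACS2, the form needed on glucose, read 1717, 1909 and 2094 in control cells against 166, 147 and 148 in dried cells. The pair moved by 3.19 (SE 0.12) and -3.63 (SE 0.10). HXT5, a hexose transporter of slow-growing cells, rose by 4.15 (SE 0.20) and HXT3, a transporter of glucose-grown cells, fell by 4.62 (SE 0.21). PFK26 and PFK27 both make fructose-2,6-bisphosphate, the activator of glycolysis. PFK26 rose by 2.19 (SE 0.11), and PFK27 was at least 5.42-fold lower because it ended at background. IDP2, the cytosolic NADP-dependent isocitrate dehydrogenase, rose by 5.05 (SE 0.09), and IDP1, its mitochondrial counterpart, fell by 1.73 (SE 0.11).

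The pentose phosphate pathway, which supplies NADPH and pentoses, held opposed pairs at 3 of its activities. GND1, the main 6-phosphogluconate dehydrogenase, read 3874, 4368 and 4256 in control cells against 227, 227 and 263 in dried cells. Its paralog GND2 read 142, 192 and 202 in control cells against 2318, 2002 and 2054 in dried cells. These changes were -4.12 (SE 0.09) and 3.59 (SE 0.14). The transketolase TKL2, whose probe set may share probes with other genes, rose by 4.41 (SE 0.14) where TKL1 fell, and the transaldolase NQM1 rose by 3.49 (SE 0.14) where TAL1 fell by 2.48 (SE 0.12). SOL3, a 6-phosphogluconolactonase, fell by 3.96 (SE 0.09). Over the whole list of 18 genes, 5 were higher and 10 lower, with a median of -0.86.

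Enzymes of nitrogen metabolism also gave opposed pairs. GDH3, the glutamate dehydrogenase made on non-fermentable carbon, read 172, 160 and 140 in control cells against 3496, 4479 and 3550 in dried cells, while GDH1 read 3320, 3998 and 4418 in control cells against 711, 626 and 665 in dried cells. The alanine aminotransferase paralog ALT2 rose by 4.35 (SE 0.16), and ALT1, the enzyme with the known activity, fell by 1.93 (SE 0.08). The cytosolic branched-chain aminotransferase BAT2 rose by 1.27 (SE 0.17) and the mitochondrial BAT1 fell by 3.02 (SE 0.11), although BAT2 lost its call with spike-in scaling. In translation, HEF3, a second gene for elongation factor 3, read 100, 150 and 156 in control cells against 3399, 4336 and 2729 in dried cells, and YEF3, the form of growing cells, fell by 1.72 (SE 0.20). ANB1, the form of eIF5A made without oxygen, was at least 11.7-fold lower, and COX5B, the cytochrome oxidase subunit used without oxygen, fell by 2.17 (SE 0.09). Their aerobic partners HYP2 and COX5A rose by 0.41 and 0.81, and HYP2 turned to -0.18 with spike-in scaling.

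At the cell surface, PMA1, the proton pump of growing cells, read 4116, 3354 and 2960 in control cells against 356, 330 and 358 in dried cells, a fall of 3.31 (SE 0.13). Its minor paralog PMA2 rose by 1.65 (SE 0.14). FKS1, the glucan synthase of vegetative growth, fell by 2.94 (SE 0.12), and GSC2, its partner in stress and sporulation, rose by 2.69 (SE 0.14) on a probe set that may share probes. MRH1, a plasma membrane protein, fell by 3.66 (SE 0.11) and its relative YRO2 rose by 0.84 (SE 0.19). The remaining opposed pairs were GPD1 (0.36) and GPD2 (-3.28) of glycerol synthesis, GPX1 (2.16) and GPX2 (-1.37) of peroxide defence, and SSE2 (0.87) and SSE1 (-1.14) of the Hsp110 chaperones. With spike-in scaling GPD1 turned to -0.17, and SSE2 and YRO2 were no longer called.

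**Figure D3:**
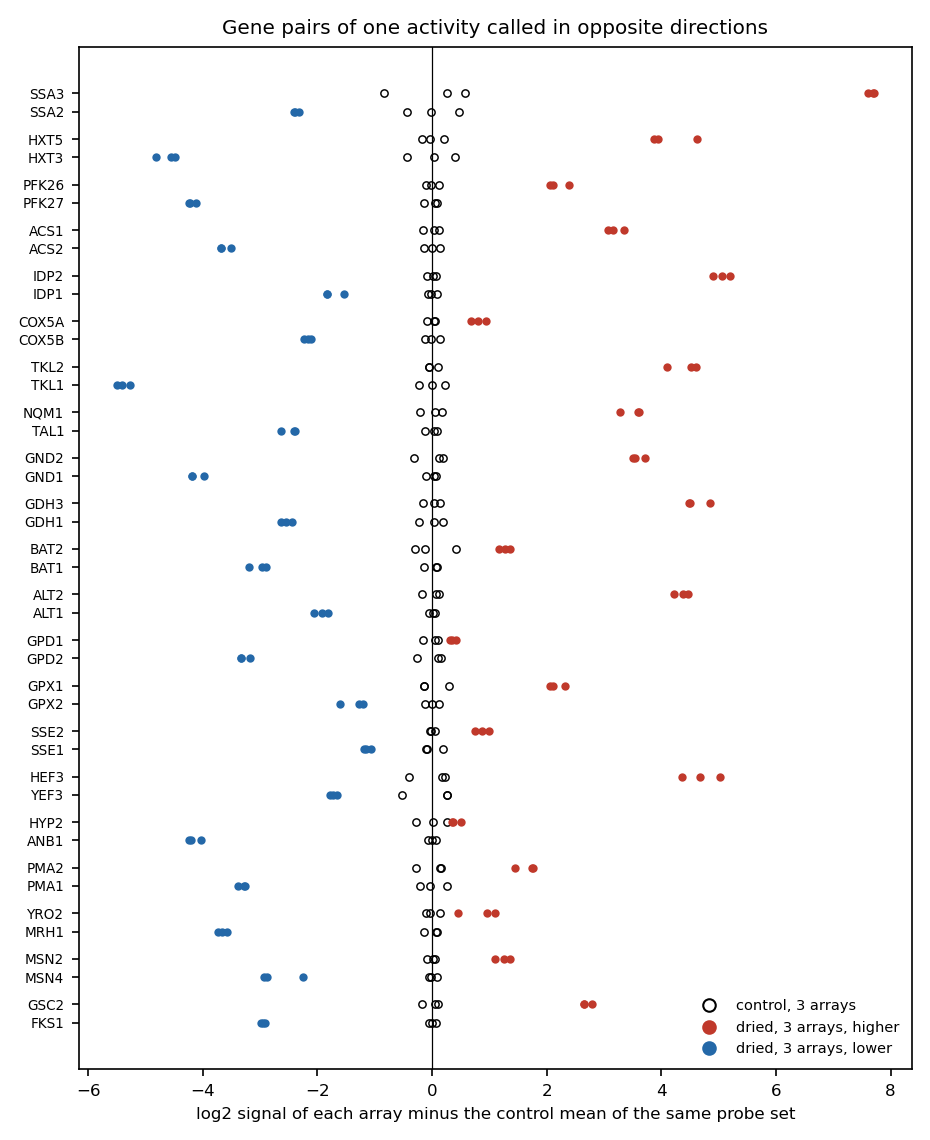
log2 signal of each array minus the control mean of the same probe set, for the 21 gene pairs whose members were called in opposite directions, with open circles for the 3 control arrays and filled circles for the 3 dried arrays (red higher, blue lower). The span runs from SSA3, at background in the control, to TKL1, which fell by 5.39, and the groups lie closest in HYP2 and GPD1.

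Transcripts for burning fat rose together. Fatty acids are oxidised in yeast only in peroxisomes, and the acetyl units leave as carnitine esters or through the glyoxylate cycle. Of 20 genes of peroxisomal fatty acid oxidation, 18 were higher and 2 lower (median 2.72), and 16 higher and 2 lower with spike-in scaling. POX1, the acyl-CoA oxidase of the first step, read 58.0, 49.9 and 69.7 in control cells against 3114, 2803 and 3373 in dried cells. POT1, the thiolase of the last step, read 206, 216 and 221 in control cells against 4167, 5249 and 3859 in dried cells. CTA1, the peroxisomal catalase that removes the hydrogen peroxide made by Pox1, read 95.9, 110 and 106 in control cells against 5626, 5553 and 5780 in dried cells. The 3 genes rose by 5.72, 4.36 and 5.77 in that order, with SE of 0.13, 0.12 and 0.08. PXA1, of the transporter that brings long-chain acyl-CoA into the peroxisome, rose by 5.16 (SE 0.11). The members that fell were ANT1, the peroxisomal ATP carrier (-2.28), and NPY1, an NADH diphosphatase (-1.93).

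Peroxins, the proteins that build peroxisomes and import their enzymes, followed. Of 24 measured members, 21 were higher and 1 lower (median 1.80), and 15 higher and 1 lower with spike-in scaling. PEX18, a coreceptor for import through Pex7, read 27.9, 44.2 and 31.6 in control cells against 1059, 874 and 932 in dried cells, a rise of 4.81 (SE 0.17). PEX28, which regulates peroxisome number, rose by 3.55 (SE 0.09). PEX19 and PEX3, which insert peroxisomal membrane proteins, rose by 2.82 and 2.80. PEX8, at -0.48, was the peroxin that fell.

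All 11 genes of carnitine and acetate handling were higher (median 3.83), and 9 with spike-in scaling. CRC1, the mitochondrial carnitine carrier, read 85.1, 87.2 and 84.3 in control cells against 4945, 5311 and 4829 in dried cells. ADY2, an acetate permease, read 86.0, 103 and 94.2 in control cells against 4746, 4455 and 4710 in dried cells. JEN1, the lactate and pyruvate permease, and CAT2, the main carnitine acetyltransferase, rose by 5.49 (SE 0.18) and 4.73 (SE 0.16). Carriers of the mitochondrial inner membrane as a class did not share this. Of 29, 6 were higher and 17 lower (median -0.64). Beside SFC1 and CRC1, GGC1, the GTP and GDP exchanger, fell by 4.54 (SE 0.12) and OAC1, the oxaloacetate carrier, by 2.96 (SE 0.14).

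Storage lipid genes had 8 of 18 higher and 7 lower (median 0.21), near the shares of all genes, and with spike-in scaling 5 higher and 6 lower. PLN1, a lipid droplet protein, read 706, 750 and 763 in control cells against 4077, 4228 and 3971 in dried cells, a rise of 2.47 (SE 0.07). TGL4, a triacylglycerol lipase, rose by 2.32 (SE 0.10). Of the enzymes that make triacylglycerol, DGA1 rose by 1.75 (SE 0.12) and LRO1 fell by 1.91 (SE 0.09). Fatty acid synthesis had 6 of 14 higher and 3 lower (median 0.10), but 4 higher and 5 lower (median -0.11) under median centring of the arrays, and the members that rose most, HFA1 (1.52) and ETR1 (1.48), serve the mitochondrial pathway. ACB1, which carries acyl-CoA in the cytosol, fell by 1.63 (SE 0.10), and ACP1, the mitochondrial acyl carrier protein, by 1.19 (SE 0.15). With spike-in scaling 3 members were higher and 3 lower.

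The GID complex is a ubiquitin ligase that removes gluconeogenic enzymes once glucose returns. All 8 of its genes were higher (median 1.95), and 7 with spike-in scaling. UBC8, its ubiquitin-conjugating enzyme, read 271, 263 and 374 in control cells against 3516, 3460 and 3677 in dried cells (3.57, SE 0.14), on a probe set that may share probes. The subunits VID28, VID30 and GID8 rose by 2.13, 2.09 and 2.0, and VID24, the subunit that recognises the substrates, by 0.65. Of 27 genes for ubiquitin and its other enzymes, 16 were higher and 4 lower (median 0.37), and 3 were higher and 4 lower with spike-in scaling. Within that list UBC5, the conjugating enzyme known from stationary cells, read 381, 347 and 447 in control cells against 2981, 3122 and 2529 in dried cells. Its close relative UBC4, known from growing cells, read 3998, 3367 and 3610 in control cells against 461, 464 and 509 in dried cells. The changes were 2.88 (SE 0.12) and -2.94 (SE 0.09).

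In the vacuole, 7 of 12 proteases and their inhibitors were higher and 1 lower (median 0.58), with 3 higher and 1 lower under spike-in scaling. PAI3, the cytosolic inhibitor of proteinase A, read 135, 119 and 130 in control cells against 3228, 3931 and 2910 in dried cells, a rise of 4.70 (SE 0.13). The carboxypeptidases CPS1 and ATG42 rose by 2.37 and 1.90, and the aminopeptidase APE1 fell by 1.82. The vacuolar proton pump went the other way, with 4 of 19 genes higher and 11 lower (median -0.69). VPH2, an assembly factor, fell by 2.26 (SE 0.08), and the subunits VMA5, VMA7 and VMA1 fell by 1.90, 1.90 and 1.64.

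Amino acid breakdown had 13 of 24 genes higher and 9 lower (median 0.64), and 7 higher and 9 lower with spike-in scaling. PUT4, the proline permease, read 69.4, 92.4 and 69.1 in control cells against 3979, 4204 and 4629 in dried cells. PUT1, the proline oxidase, read 399, 427 and 421 in control cells against 2958, 2994 and 2691 in dried cells. These rises were 5.80 (SE 0.13) and 2.79 (SE 0.08). ARO8, an aromatic aminotransferase that also serves synthesis, read 4746, 4191 and 4219 in control cells against 249, 264 and 235 in dried cells, a fall of 4.14 (SE 0.11).

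**Figure D4:**
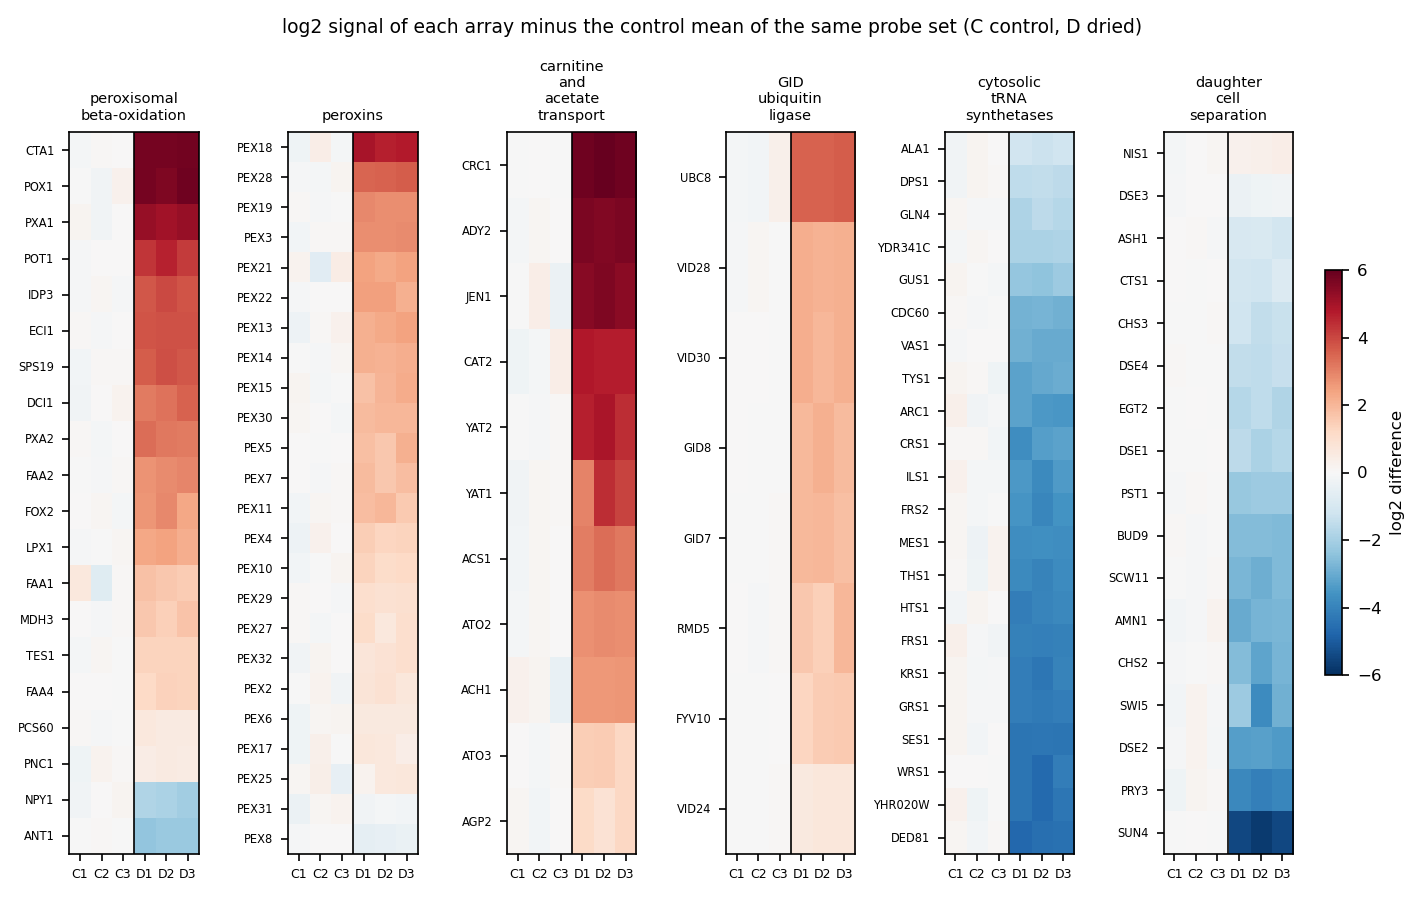
log2 signal of each of the 3 control (C) and 3 dried (D) arrays minus the control mean of the same probe set, for every measured member of 6 gene lists ordered by change. Beta-oxidation (18 of 20 higher), peroxins (21 of 24), carnitine and acetate transport (11 of 11) and the GID ligase (8 of 8) are mostly red in dried cells, and the tRNA synthetases (22 of 22 lower) and daughter cell separation (16 of 17 lower) are mostly blue.

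Genes for charging tRNA and for translation factors were mostly lower. All 22 genes for cytosolic tRNA synthetases, the cofactor ARC1 included, were lower, with a median of -3.62 and a range from -4.56 to -1.21. DED81, which charges asparagine tRNA, read 3936, 3242 and 3859 in control cells against 142, 158 and 166 in dried cells. SES1, for serine, read 3979, 3208 and 3589 in control cells against 171, 178 and 173 in dried cells. Their log2 changes were -4.56 (SE 0.11) and -4.36 (SE 0.11), and WRS1, for tryptophan, fell by 4.40 (SE 0.13). The groups did not overlap in any of the 22 genes, nor in 2136 of the 2150 genes called lower. Among 32 translation factors, 27 were lower and 2 higher (median -1.68), the latter being HEF3 and HYP2. PRT1, a core subunit of eIF3, read 1874, 1634 and 1871 in control cells against 156, 143 and 150 in dried cells (-3.58, SE 0.09), and TEF4, of elongation factor 1B, fell by 3.62 (SE 0.17).

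Proteins that meet the nascent chain at the ribosome were lower too, 8 of 10 measured with none higher (median -2.06). ZUO1, the ribosome-bound J-protein, read 2292, 3261 and 2754 in control cells against 256, 272 and 337 in dried cells, a fall of 3.26 (SE 0.17). NAT1 and ARD1, the subunits of the major N-terminal acetyltransferase, fell by 2.98 and 2.68, and EGD2, of the nascent polypeptide-associated complex, by 2.37. Other cytosolic chaperones had 7 of 30 higher and 15 lower (median -0.39). Beside SSA3, the small heat shock protein gene HSP26 read 434, 404 and 402 in control cells against 4109, 3911 and 3893 in dried cells, a rise of 3.27 (SE 0.07). CCT5, of the chaperonin that folds actin and tubulin, fell by 1.69 (SE 0.11).

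The secretory path fell at each stage examined. Of 34 genes for translocation into and folding in the endoplasmic reticulum, 24 were lower and 3 higher (median -0.67). SIL1, an exchange factor for the lumenal chaperone Kar2, read 427, 387 and 419 in the control and reached background in dried cells, at least 8.09-fold lower. SEC63, of the translocon, was at least 6.0-fold lower, and SCJ1, a lumenal J-protein, fell by 2.43 (SE 0.12). MPD1, a disulfide isomerase, scattered in the control (361, 97.9 and 207) and was at least 3.83-fold lower.

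N-glycosylation had 27 of 30 measured genes lower and none higher (median -1.68). ALG8, which adds a glucose to the lipid-linked sugar, read 1074, 992 and 1037 in control cells against 115, 106 and 114 in dried cells, a fall of 3.21 (SE 0.13). DPM1, which makes the mannose donor, fell by 2.97 (SE 0.10), and OST5, a subunit of the transferase that moves the sugar to protein, fell by 2.67 (SE 0.09). Vesicle coats had 19 of 30 lower and 3 higher (median -1.51). COP1 and SEC27, subunits of the COPI coat, fell by 3.03 (SE 0.08) and 2.79 (SE 0.12), SFB3, a cargo adaptor of the COPII coat, by 2.84 (SE 0.13), and ERP2, a p24 cargo protein, by 3.19 (SE 0.12).

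Sphingolipid synthesis had 19 of 27 genes lower and 4 higher (median -1.37). The steps that build very long fatty acids stood at its low end. ELO3 read 2680, 3327 and 3125 in control cells against 170, 184 and 181 in dried cells. ELO2 read 1083, 1100 and 1189 in control cells against 62.5, 64.5 and 71.9 in dried cells. These elongases fell by 4.09 (SE 0.13) and 4.08 (SE 0.17), and IFA38, the ketoreductase of the same cycle, fell by 3.44 (SE 0.08). LCB1, of the serine palmitoyltransferase that starts the pathway, fell by 3.27 (SE 0.12).

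Genes that free a daughter cell from its mother were mostly lower, with 16 of 17 lower and none higher (median -2.21). SUN4, a wall protein of the septum, read 3268, 3339 and 3261 in control cells against 73.7, 62.0 and 74.8 in dried cells, a fall of 5.56 (SE 0.15). PRY3, a secreted wall protein, fell by 3.97 (SE 0.19), DSE2, a daughter-specific wall protein, by 3.32 (SE 0.12), and CHS2, the chitin synthase of the primary septum, by 2.85 (SE 0.19). Septin and bud polarity genes had 17 of 31 lower and 6 higher (median -0.47). The septin CDC10 read 924, 850 and 918 in control cells against 128, 129 and 132 in dried cells. The septin CDC3 was at least 7.50-fold lower, and GIC2, an effector of the polarity switch Cdc42, fell by 3.24 (SE 0.19).

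Cell cycle genes showed no common direction. Of 37 genes for the G1/S switch and replication, 12 were higher and 12 lower (median -0.04), with 3 higher and 10 lower under spike-in scaling. CLN3, the first G1 cyclin, read 930, 981 and 1029 in control cells against 136, 135 and 113 in dried cells, a fall of 2.94 (SE 0.10). The later G1 cyclins CLN1 and CLN2 reached background and were at least 4.22-fold and at least 4.33-fold lower. RNR3, the damage-induced ribonucleotide reductase subunit, rose by 1.89 (SE 0.18) on a probe set that may share probes. Spindle and kinetochore genes had 19 of 35 higher and 7 lower (median 0.76), and 10 higher and 6 lower with spike-in scaling. The tubulin genes all lay among the lower ones. TUB3, the minor alpha-tubulin, read 2264, 2282 and 2119 in control cells against 94.8, 122 and 121 in dried cells (-4.31, SE 0.13). TUB2, TUB1 and TUB4 fell by 1.65, 1.02 and 0.51. The kinetochore gene NDC80, the motor CIN8 and the spindle pole gene SPC110 rose by 2.17, 1.93 and 1.96 from signals near background. SPC110, for one, read 47.5, 35.2 and 50.5 in control cells against 171, 161 and 179 in dried cells.

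Anaphase and mitotic exit had 8 of 29 genes higher and 12 lower (median -0.12). CLB1, a mitotic cyclin, fell by 2.42 (SE 0.32). CDH1, the activator that keeps the anaphase-promoting complex on in G1, read 121, 139 and 157 in control cells against 486, 477 and 468 in dried cells, a rise of 1.79 (SE 0.11). CDC27, a subunit of that complex, rose by 1.61 (SE 0.13), and CDC23, another, was at least 3.0-fold higher.

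Splicing genes were more often higher, 22 of 40 with 5 lower (median 0.60), and 12 higher and 4 lower with spike-in scaling. PRP3, a protein of the U4/U6 particle, read 97.1, 69.5 and 106 in control cells against 540, 482 and 521 in dried cells, a rise of 2.52 (SE 0.15). CLF1, a scaffold of spliceosome assembly, rose by 2.32 (SE 0.17). The members that fell most, PRP43 (-3.26, SE 0.09) and SNU13 (-2.93, SE 0.10), are known to act in ribosome biogenesis as well. The 4 RNA components of the spliceosome that were measured, looked at after their values were seen, also rose. SNR14, the U4 RNA, read 104, 69.3 and 56.7 in control cells against 4405, 4629 and 4486 in dried cells. SNR6, the U6 RNA, read 202, 208 and 179 in control cells against 4396, 4268 and 4129 in dried cells. SNR19, the U1 RNA, read 139, 203 and 145 in control cells against 613, 632 and 622 in dried cells. These rises were 5.92 (SE 0.21, adjusted p = 1.4e-07), 4.44 (SE 0.13, adjusted p = 5.6e-08) and 1.96 (SE 0.15, adjusted p = 8.0e-06). The U5 RNA SNR7-L, on a probe set that may share probes, rose from background by at least 28.1-fold.

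Other RNAs that are not translated did not move as one. RPR1, the RNA of RNase P, which trims tRNA precursors, read 294, 482 and 423 in control cells against 4818, 5000 and 4728 in dried cells, a rise of 3.63. Of 57 small nucleolar RNAs, which guide modification of ribosomal RNA, 17 were higher, 15 lower and 25 not called (median 0.09). SNR45 read 64.5, 65.0 and 66.2 in control cells against 788, 746 and 686 in dried cells, and SNR44 went from 1012, 978 and 971 to 235, 276 and 240. TLC1, the telomerase RNA, fell by 0.83 (SE 0.13). Of 91 tRNA genes, 62 were higher and 1 lower (median 1.81). All but 3 of the 91 were on probe sets that may share probes, so these cannot be taken as independent counts. The labels do not say how the RNA was primed for labelling, and the part of RNA quality or priming in these changes was not tested. A control probe set for 25S ribosomal RNA read 2788, 4036 and 139 in the 3 dried samples against 140 to 243 in the control, and a probe set of RDN25-1, which may share probes, read 145, 162 and 145 in control cells against 4092, 4685 and 3537 in dried cells. Ribosomal RNA signal did not rise throughout. Of 5 ribosomal RNA genes, all on probe sets that may share probes, 3 were higher and 2 lower. RDN18-1, a higher one, lay at background in both groups. RDN5-1 read 388, 480 and 474 in control cells against 79.2, 66.7 and 37.1 in dried cells. The control probe sets for 18S moved in both directions. A set that fell read 57.8, 73.5 and 82.0 in control cells against 35.7, 46.9 and 48.4 in dried cells. Sets that rose read 62.8, 114 and 55.9 against 126, 172 and 378, and 62.4, 66.4 and 62.4 against 126, 181 and 113. Another that rose read 30.2, 41.0 and 26.8 against 81.0, 94.6 and 79.5. In the remaining set, 26.0, 45.1 and 42.7 against 45.0, 56.5 and 43.35, the groups overlapped. The part of ribosomal RNA in these changes was not tested either. All 4 measured small nuclear RNAs were lower in commercial dry yeast than in dried BY4743. There SNR14 read 586, 737 and 728 and SNR6 read 369, 380 and 498. The difference from dried BY4743 was -2.73 (SE 0.21, adjusted p = 1.5e-05) for SNR14 and -3.37 (SE 0.13, adjusted p = 5.2e-07) for SNR6. In that comparison, which shares the dried arrays, 32.1% of genes were higher and 38.1% lower in commercial yeast.

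**Figure D5:**
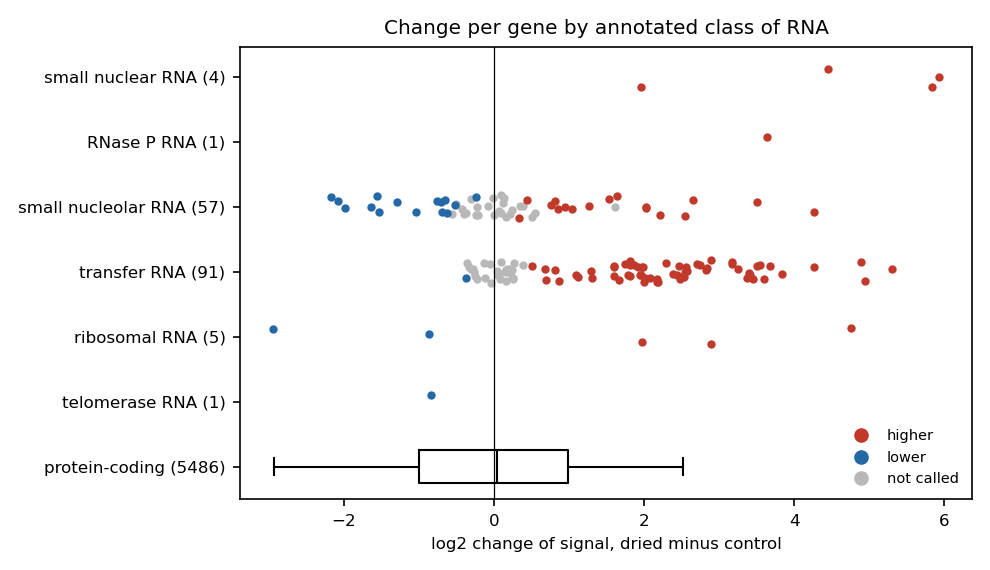
log2 change of signal, dried minus control, for each gene of the annotated classes of untranslated RNA, with the number of genes in brackets and red, blue and grey for higher, lower and not called. The box gives the quartiles and the median of 5486 protein-coding genes, with whiskers at the 5th and 95th percentiles. All 4 measured small nuclear RNAs lie above 1.9.

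Genes of messenger decay had 13 of 33 higher and 8 lower (median 0.33), and 5 higher and 6 lower with spike-in scaling. EDC2, an activator of decapping, read 976, 1103 and 1165 in control cells against 4939, 5406 and 4903 in dried cells, a rise of 2.23 (SE 0.10). DCP2, the decapping enzyme, and MOT2, a ligase of the Ccr4-Not complex, rose by 1.52 and 1.97, and EDC3, another decapping activator, fell by 1.90. Nuclear pore and karyopherin genes had 22 of 41 lower and 4 higher (median -0.51). GSP1, the yeast Ran that drives nuclear transport, read 5467, 3460 and 5232 in control cells against 416, 439 and 437 in dried cells, a fall of 3.42 (SE 0.17). The karyopherins PSE1 and SXM1 fell by 2.12 and 1.82, and the pore protein NUP188 by 1.86.

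DNA repair had 21 of 39 measured genes higher and 7 lower (median 0.60), with 11 higher and 7 lower under spike-in scaling. MGT1, which removes methyl groups from guanine, read 133, 121 and 165 in control cells against 1382, 1389 and 1446 in dried cells, a rise of 3.34 (SE 0.13). RAD54, of homologous recombination, rose by 2.30 (SE 0.14), and REV3, the catalytic subunit of a translesion polymerase, by 1.87 (SE 0.18). NTG1, a glycosylase of base excision repair, fell by 1.84 (SE 0.18). Among 25 multidrug and plasma membrane pumps, 11 were higher and 9 lower (median 0.17), and 3 higher and 9 lower with spike-in scaling. With median centring 9 were higher and 10 lower. PDR10, a multidrug pump, read 563, 620 and 609 in control cells against 3373, 4018 and 3119 in dried cells. QDR2, a multidrug exporter, read 1413, 1623 and 1592 in control cells against 163, 112 and 155 in dried cells. The polyamine exporter TPO2 fell by 5.87 (SE 0.15) on a probe set that may share probes.

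Spores and haploid cells were looked for by their own genes, since a diploid can sporulate when starved. Of 20 genes of the spore wall and late sporulation, 7 were higher and 3 lower (median 0.13), and with spike-in scaling 5 were higher and 6 lower. In both groups 9 of them lay at background, among them DIT2, SPS2, SPR3 and the kinase gene SMK1, none of which was called, and SSP1, which was called lower. GIP1, a phosphatase partner needed for spore wall formation, read 2.01, 2.45 and 1.87 in control cells against 403, 411 and 403 in dried cells, at least 9.89-fold higher. SPS100, a spore wall protein, rose by 4.61 (SE 0.21), and SPO20, a SNARE of the spore membrane, was at least 3.23-fold higher. Of 21 genes expressed in haploids or in 1 mating type, 5 were higher and 6 lower (median -0.02), and 5 lay at background in both groups, of which STE18 and GPA1 were among those called higher. MFA1, a mating pheromone gene, was at least 5.19-fold higher on a probe set that may share probes, and MF(ALPHA)1, the gene of the opposite pheromone, read 137, 120 and 74.4 in the control and was at least 2.10-fold lower.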

How the data were processed

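The deposited table gives a linear signal intensity for each probe set on each array. Labelled cRNA was hybridised to Affymetrix Y98 chips per the labels, and the authors used GeneChip software, a signed rank test and a linear mixed model to obtain the signals; software versions and dates are not given in the sources used here. Groups came from the sample titles. Intensities below 1 were set to 1, log2 was taken, and the arrays were quantile normalized and fitted with limma 3.58.1 in R 4.3.3 (lmFit, eBayes, 6 residual and 1.64 prior degrees of freedom, all 9 arrays, 60 control probe sets left out). The two-sided test was adjusted by Benjamini-Hochberg at 0.05, and the steps were tested on simulated data. RNA quality was tested by exact permutation with SciPy 1.17.1. Background per array was the 95th percentile of 28 absent controls. Bounds set the bright group's mean against the higher of background and the dim signal. An adjusted p beside a bound tests the fitted change.

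Names come from the platform annotation and the RefSeq table of assembly R64: 6504 named 1 gene, 328 several and 2443 none. Of 216 genes with several called probe sets, 28 had calls in opposite directions. The number of arrays limits the precision, and no depth exists.

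The comparison, the 36 gene lists and the 55 pairs were chosen with earlier results of these data known. Genes were named by rule: up to 12 extremes each way, of each list up to 4 members with called changes of greatest size and groups that do not overlap, members of opposed pairs, and marker loci. Of the marker loci under that rule, HIS3, LYS2 and MET17 are not reported here. SNF1, SNF4, MIG1, ANT1, NPY1, PEX8, VID24, TUB1, TUB2, TUB4, TDH3, ENO1, ENO2, ADH1, the untranslated RNAs other than SNR14, and the spore genes at background were named after their values were seen. Alternatives covered the scaling, floor, filter, shared probes, arrays fitted, replicate numbers and each array left out. Replicate numbers did not pair the arrays (correlations of same-numbered deviations 0.03, 0.13 and -0.03).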

Additional observations from a re-analysis of the deposited data

How the results depend on the processing

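Under the values as deposited, median centring, an offset of 50, either floor at background, the filter on the dimmest 25%, plain probe sets alone and the 6 arrays alone, the higher probe sets numbered 2737 to 3549 and the lower ones 2605 to 3316, against 3358 and 3063, and no probe set was called in the opposite direction under any setting. Leaving out 1 array gave 3121 to 3248 higher and 2884 to 2934 lower, and neither that nor the mean of a gene's probe sets moved the leading count of any of the 36 lists by over 1.5 times. The same floor on every array was added after the data were seen. With the replicate number as a block, 3266 were higher and 2986 lower, and GPD1 and HYP2 lost their calls; since the numbers do not pair the arrays, this says nothing of pairing.

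Scaling to spike-ins left 1767 higher probe sets. It lowered the higher members of these lists: stress and quiescence regulators to 7, PKA and TOR signalling to 8, vacuolar proteases to 3, fatty acid synthesis to 3, spindle and kinetochore to 10, splicing to 12 and DNA repair to 11. Smaller drops left 15 higher peroxins, 15 carbon derepression regulators, 10 growth transcription factors and 16 beta-oxidation genes. Lower members outnumbered higher ones for ubiquitin and its enzymes (3 higher), storage lipid and lipolysis (5), amino acid breakdown (7), G1/S and replication (3), mRNA decay (5), multidrug and plasma membrane pumps (3) and spore wall and late sporulation (5 higher, 6 lower). By construction this scaling shifts every gene of an array alike. GPD1 turned to -0.17 and HYP2 to -0.18. Median centring gave more lower than higher members for fatty acid synthesis (4 higher, 5 lower) and the pumps (9 higher, 10 lower). Spore wall and late sporulation had 4 higher members with the same floor on every array and 3 without the dimmest probe sets, where fewer were tested. Haploid-specific genes had 3 lower members with either floor and 2 without the dimmest probe sets. URA3, at background in both groups, turned to 0.31 with the floor at each array's background. The SPT15 difference of RNA quality moved to 0.13 as deposited and 0.16 with the offset of 50; the cause was not tested. Promoter motif shares were not run, since no promoter sequence was used here. Signals near background limit what can be said of dim genes.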
